A study of Mus musculus with 4 samples.

Results

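Stretches of the mouse genome that were late replicating on the control array and early replicating on the Suv4-20h knockout (KO) array of embryonic fibroblasts are described here. They are 447 windows of 200 kb among 11332 autosomal windows, a share of 3.94%, and together cover 89.4 Mb. Timing is log2 of early S phase signal divided by late S phase signal, minus the median of the array's autosomal probes, so 0 is the middle of each array and a higher value means earlier replication. A window was taken when it held 5 or more probes, its mean timing was below 0 on control and above 0 on KO, and KO minus control was at least 0.45. KO and control values therefore chose the windows and are given as a description only. The study hybridised 4 arrays, 1 per group, of mouse embryonic fibroblasts (MEF). In the KO cells the floxed Suv4-20h1 allele was deleted, and they were set against control cells. Cells labelled induced suv4-20h mutant were set against cells labelled non-induced suv4-20h mutant. All were grown in 10% serum at 3% oxygen and took up the nucleotide analogue BrdU for 1 hour, after which sorting of 80000 cells gave an early and a late fraction. The labels give line number 362.2 for every sample in one field and 364.2 in another. They list deletion by 4-hydroxytamoxifen (1 mM, 24 hours) on every sample without saying which cells received it, and give no means of induction for the induced cells.

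Chromosomes are copied in blocks, each of which starts replication at a characteristic time in S phase. Early blocks are as a rule gene rich and open, and late blocks are gene poor, compact and often at the nuclear edge. Suv4-20h1 and Suv4-20h2 are methyltransferases that add further methyl groups to a lysine of histone H4 already carrying one, and the most highly methylated form marks pericentric heterochromatin. That histone lysine is also known for its part in binding the origin recognition complex and in licensing origins.

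KO and control lay on 1 slide, and induced and non-induced on the other, so between these pairs the slide cannot be told apart from the cells. With 1 array per group there is no replicate check on any difference below, and none was tested. Standard errors (SE) are over probes of a window or region, and cover probe noise only. Array medians of the signal over local background were 144 to 209 for early DNA and 222 to 436 for late DNA. In both channels, 89.1 to 94.9% of autosomal spots rose well above background. Total signal of both channels on chromosome X was lower on KO than on control by a median log2 difference of -0.47, whereas chromosome medians of the autosomes lay between -0.24 and 0.28. The KO and control arrays thus differed in more than timing, and the part of this in the results was not tested.

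By their medians the 447 windows were moderately early on KO and moderately late on control, though some windows went further. KO timing ranged from 0.002 to 1.23 with a median of 0.41, and control timing from -1.08 to -0.0004 with a median of -0.31. By comparison, the 90th percentile of all windows was 0.93 on KO and the 10th percentile was -0.93 on control. KO minus control had a median of 0.72, a 10th percentile of 0.52 and a 90th percentile of 1.11, and reached 1 or more in 77 windows. Of all autosomal windows, 8.73% had a difference of at least 0.45. Besides the 447, these were 392 windows already above 0 on control and 150 windows still below 0 on KO. A further 194 windows crossed 0 by less than 0.45. The 5 windows just inside the limit all had differences of 0.45 to 2 decimals, and the 5 just outside had 0.443 to 0.44996.

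**Figure D1:**
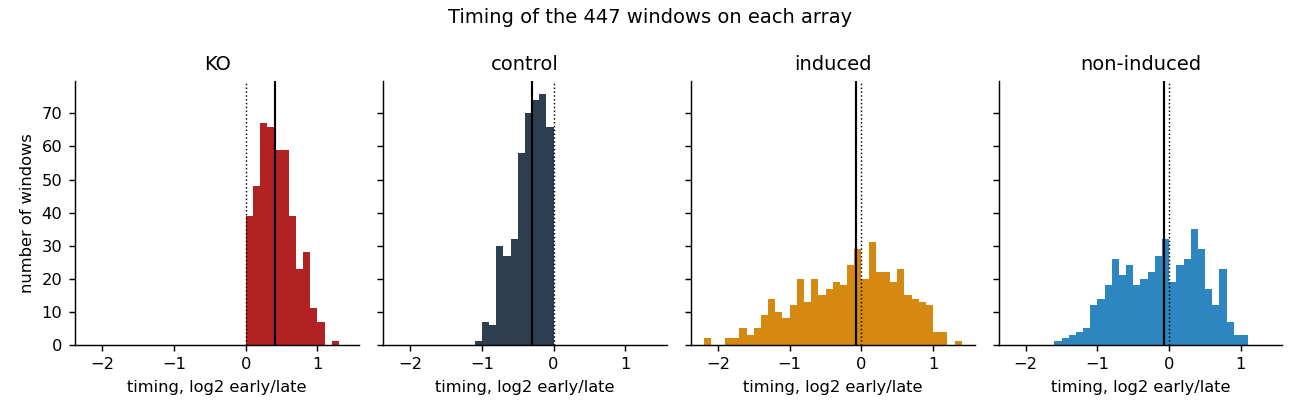
Number of windows (y axis) by timing in log2 early over late (x axis) for the 447 windows on the KO, control, induced and non-induced arrays; the solid line is the median and the dotted line is 0. KO and control values lie on opposite sides of 0 by the rule, while the induced and non-induced values spread over both sides, with medians of -0.08 on each.

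In the windows of largest difference, nearly every probe was on the other side of 0. The largest was on chromosome 9 from 95200001 to 95400000 (mm9), where timing was 1.03 on KO, -0.57 on control, 0.34 on induced and 0.52 on non-induced, and KO minus control was 1.61 ± 0.18 (SE over 14 probes). All 14 probes were above 0 on KO and 0 of them on control. The window on chromosome 8 from 46400001 to 46600000 had 0.86 on KO, -0.69 on control, 0.16 on induced and -0.02 on non-induced, with 19 of 19 probes above 0 on KO and 0 on control. These windows differed in what the other slide showed: the first was early on induced and non-induced, and the second lay near 0 there. On chromosome 4 from 3400001 to 3600000, timing was 0.81 on KO, -0.68 on control, -0.10 on induced and -0.26 on non-induced over 12 probes. On chromosome 2 from 172200001 to 172400000, timing was 0.67 on KO, -0.71 on control, -1.004 on induced and -0.97 on non-induced, with 23 of 25 probes above 0 on KO and 1 on control. Here KO stood alone as early. The fifth, on chromosome 2 from 108600001 to 108800000, rested on 5 probes and had 0.82 on KO, -0.63 on control, -1.22 on induced and -0.78 on non-induced. Over all 447 windows, 81.1% of 6709 spots were above 0 on KO, 20.7% on control, 49.0% on induced and 48.7% on non-induced.

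Medians of both channels differed between KO and control, in opposite directions. The rule uses the ratio of these channels, so this is a description only. Relative to each channel's autosomal median, early signal in the windows had a median of 0.67 on KO and 0.11 on control, and late signal a median of 0.17 on KO and 0.45 on control. By these medians early signal was higher and late signal lower on KO, but this did not hold in every window. On chromosome 12 from 57600001, for example, late signal was 0.93 on KO and 0.69 on control. Total signal of both channels was higher on KO by a median log2 difference of 0.16, against 0.02 over all autosomal windows. The median window had 100% of its spots well above background on all 4 arrays. On induced the 10th percentile was 90.3% and the lowest window had 50%.

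The difference was carried by different probes of a window alike. When windows were chosen by the same rule on odd-numbered probes alone (453 windows with at least 3 probes in each set), the even-numbered probes, which had no part in that choice, gave a median KO minus control of 0.69, against 0.73 in the probes used. The difference was above 0 in 450 of the 453 windows on the even probes, at least 0.45 in 80.6%, and met the whole rule in 68.2%. Chosen on even probes, 442 windows had 0.70 on the odd ones, and 69.9% met the whole rule. Probes of 1 array share the same DNA, so this concerns probe noise and not the spread between cultures.

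The windows lay in many short regions and few long ones. Joined where they were adjacent or had 1 window between them, they formed 274 regions, of which 162 were single windows, 71 held 2 windows and 41 held 3 or more. The longest held 6 windows. The windows that went the other way, above 0 on control, below 0 on KO and lower by at least 0.45, numbered 585 (5.16% of windows) in 228 regions. Of those regions 133 were single windows, a share of 58.3%, close to the 59.1% of the late-to-early kind. The kinds differed in long regions: 38 of the 228 held 5 or more windows, with up to 16, whereas 6 regions of the late-to-early kind did. As a share of windows, 32.0% of the 447 lay in regions of 3 or more windows, against 67.4% of the 585.

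They often lay beside early replicating DNA. Of 269 regions with a measured window on each side, 137 had 1 flanking window above 0 on control, 36 had both above 0, and 96 had neither. Counted by window, where both neighbours were measured, 41.7% of the 447 had 1 neighbour above 0 on control, 5.0% had both and 53.3% had neither. Among the other windows below 0 on control, these shares were 18.6%, 1.77% and 79.6%. The rule takes control values into account, so these shares are a description. On the arrays that the rule did not use, timing was also sloped around these windows: across 5 windows centred on each, the median absolute change was 0.83 on induced and 0.71 on non-induced, against 0.53 on induced and 0.44 on non-induced over all windows. Among the other windows below 0 on control it was 0.60 on induced and 0.49 on non-induced. Over all windows, timing on these arrays went with that on KO and control (Pearson's r of 0.83 to 0.87). The sets were also not matched on control timing, so these slopes are a description too.

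The 10 regions with the most windows fell into groups by what the other slide showed. A region's timing is the mean over probes of the windows that met the rule. In 6 of the 10 it leaves out 1 or 2 windows inside the stretch that did not, and the mean over the whole stretch is then given too. In the first group KO alone was early in all windows or all but 1. On chromosome 8 from 8000001 to 9200000, timing was 0.53 ± 0.06 on KO, -0.51 ± 0.05 on control, -0.94 ± 0.10 on induced and -0.79 ± 0.07 on non-induced (SE over 55 probes). Its 5 windows had 0.25 to 1.03 on KO, -0.77 to -0.15 on control, -2.12 to -0.17 on induced and -1.49 to -0.27 on non-induced. KO was above the other 3 arrays in each of the 5, and both flanking windows were late on all arrays, at -0.30 and -1.04 on KO. The sixth window of the stretch, from 8800001, was late on KO as well, at -0.24 over 6 probes, and with it the mean was 0.45 on KO and -0.53 on control. The early timing on KO was thus broken by 1 late window and bordered by late ones, and the other 3 arrays were late throughout. On chromosome 2 from 172200001 to 173000000, timing was 0.64 ± 0.09 on KO, -0.44 ± 0.08 on control, -0.71 ± 0.10 on induced and -0.73 ± 0.09 on non-induced (59 probes), and the window after it was early on KO and control, at 0.78 and 0.49. The early domain beside it reached further on KO. Of its 4 windows 3 were early on KO alone, and the fourth, next to that domain, lay near 0 on induced and non-induced, at 0.01 and -0.08. On chromosome 2 from 114800001 to 115800000, timing was 0.61 ± 0.08 on KO, -0.18 ± 0.05 on control, -0.74 ± 0.06 on induced and -0.69 ± 0.06 on non-induced (48 probes). All 4 of its windows were early on KO alone, and with the window from 115400001, at 0.26 on KO and -0.14 on control, the means were 0.51 on KO and -0.17 on control.

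The longest region, on chromosome 1 from 9800001 to 11200000, was mixed. Its 6 windows had 0.03 to 0.80 on KO and -0.48 to -0.02 on control, and a mean over 100 probes of 0.29 ± 0.05 on KO, -0.35 ± 0.04 on control, -0.40 ± 0.06 on induced and -0.38 ± 0.06 on non-induced. The first window was early on induced and non-induced, at 0.25 and 0.43, while the third was late there, at -1.05 and -1.11. So within 1 region both kinds occurred. The window left out, from 10400001, was late on all arrays, at -0.40 on KO and -0.64 on control over 20 probes. With it the mean was 0.18 on KO and -0.40 on control, so KO was not early along the whole stretch.

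At the other end, control alone was late in 4 of the 5 windows on chromosome 14 from 67400001 to 68400000. Timing in them was 0.44 ± 0.05 on KO, -0.35 ± 0.05 on control, 0.63 ± 0.06 on induced and 0.51 ± 0.06 on non-induced (70 probes). In these 4 windows, control was below the other 3 arrays by at least 0.45 each time. The window from 67600001 was above 0 on all arrays, at 1.12 on KO and 0.07 on control, and with it the mean was 0.56 on KO and -0.27 on control.

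In the remaining regions the means on the induced and non-induced arrays lay between KO and control. On chromosome 1 from 36800001 to 37800000, a dip between early flanks, timing was 0.41 ± 0.05 on KO, -0.41 ± 0.04 on control, 0.24 ± 0.05 on induced and 0.04 ± 0.05 on non-induced (97 probes), and flanking windows were at 0.85 and 0.85 on KO and 0.75 and 0.40 on control. The other slide dipped too, to -0.17 on induced and -0.40 on non-induced in the window from 37400001, with flanks of 0.89 and 0.81 on induced and 0.85 and 0.60 on non-induced. Control was late alone in 3 of its 5 windows. On chromosome 8 from 45800001 to 47000000, timing was 0.63 ± 0.06 on KO, -0.53 ± 0.05 on control, 0.15 ± 0.08 on induced and 0.03 ± 0.07 on non-induced (74 probes). The window from 46000001 inside it was late on all arrays, at -0.68 on KO and -0.9999 on control over 15 probes, and with it the mean was 0.41 on KO, -0.61 on control, -0.10 on induced and -0.20 on non-induced. On chromosome 5 from 150600001 to 151600000, another dip between early flanks, it was 0.56 ± 0.05 on KO, -0.45 ± 0.05 on control, -0.03 ± 0.05 on induced and -0.04 ± 0.06 on non-induced (87 probes). The 5 windows of that dip were all above 0 on KO, while induced and non-induced reached -0.46 and -0.57 at their lowest. Chromosome 19 held another 2 regions. From 16800001 to 17600000, timing was 0.60 ± 0.06 on KO, -0.20 ± 0.05 on control, -0.07 ± 0.04 on induced and 0.05 ± 0.05 on non-induced (72 probes). From 24000001 to 25400000 it was 0.26 ± 0.04 on KO, -0.45 ± 0.05 on control, -0.20 ± 0.05 on induced and -0.37 ± 0.06 on non-induced (97 probes). In this last region the first pair of windows was above 0 on induced and non-induced and the other 3 windows were below. A further 2 windows inside it, from 24400001 and 25000001, were late on KO at -0.27 and -0.17 and on control at -1.002 and -0.80. With them the mean over 140 probes was 0.11 on KO and -0.59 on control, -0.25 on induced and -0.47 on non-induced.

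**Figure D2:**
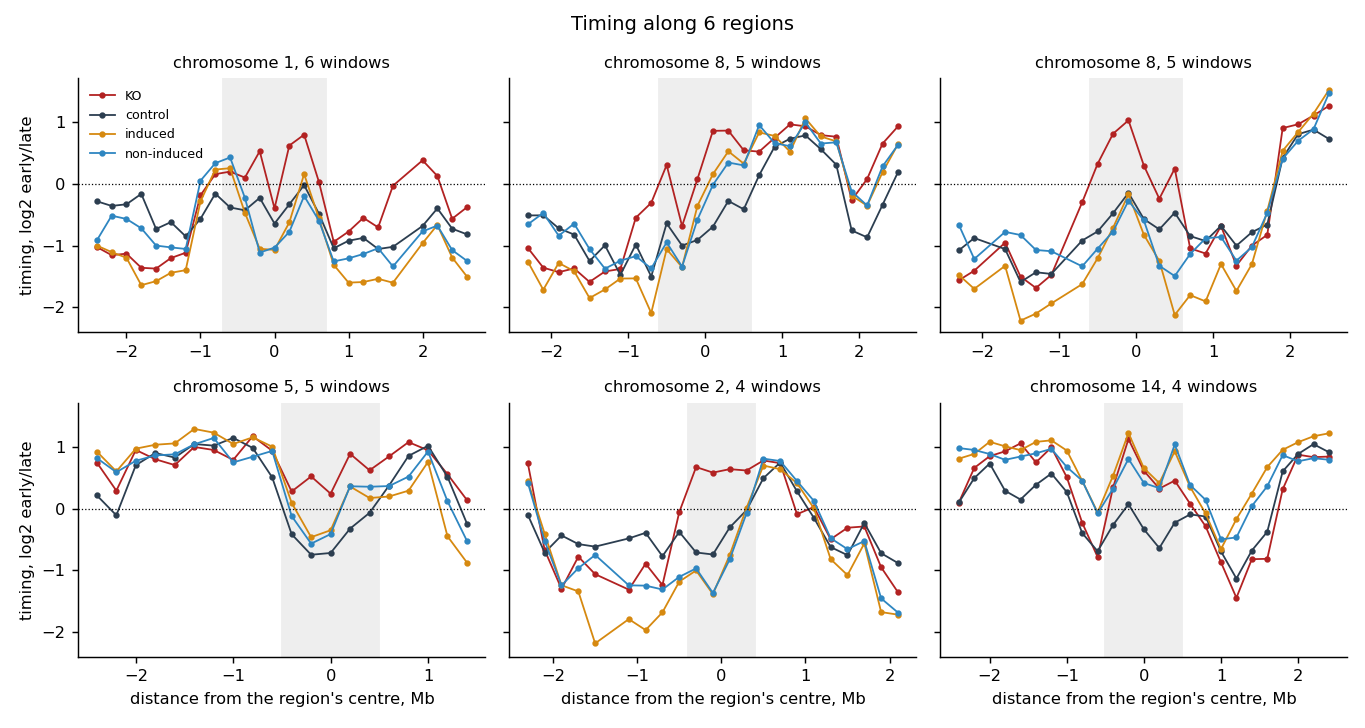
Timing in log2 early over late (y axis) of 200 kb windows by distance from the region's centre in Mb (x axis), for 6 of the 10 regions with the most windows; lines are the KO, control, induced and non-induced arrays, grey marks the region, including windows in it that did not meet the rule, and the dotted line is 0. In the regions with 5 windows on chromosome 8 and 4 on chromosome 2, KO rises above the other arrays, at 1.03 at its highest in the stretch of chromosome 8 from 8000001, where 1 window drops to -0.24, while on chromosome 14 control lies below the other 3.

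The induced and non-induced arrays, which the rule did not use, divided the 447 windows into early and late ones. Timing was above 0 in 200 windows on induced (44.7%, 95% exact binomial interval 40.1 to 49.5%) and in 198 on non-induced (44.3%, 39.6 to 49.0%). Over all autosomal windows these shares were 43.0% and 44.6%, and over windows below 0 on control they were 10.1% and 11.5%. The intervals count windows, which are not independent along a chromosome. Timing ranged from -2.12 to 1.32 on induced, with a median of -0.08, and from -1.51 to 1.09 on non-induced, also with a median of -0.08. The middle 50% of windows spanned -0.65 to 0.36 on induced and -0.58 to 0.35 on non-induced, a wider range than the rule left on KO (0.24 to 0.59) or control (-0.49 to -0.16). Across the 447 windows the 2 arrays went closely together (Pearson's r = 0.95, Spearman's rho = 0.96, against r = 0.96 over all windows). They share a slide, as do KO and control, for which r was 0.85 over all windows. The labels give the same line numbers for every sample, KO and control included. The parts of slide and cells in this closeness were not tested.

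**Figure D3:**
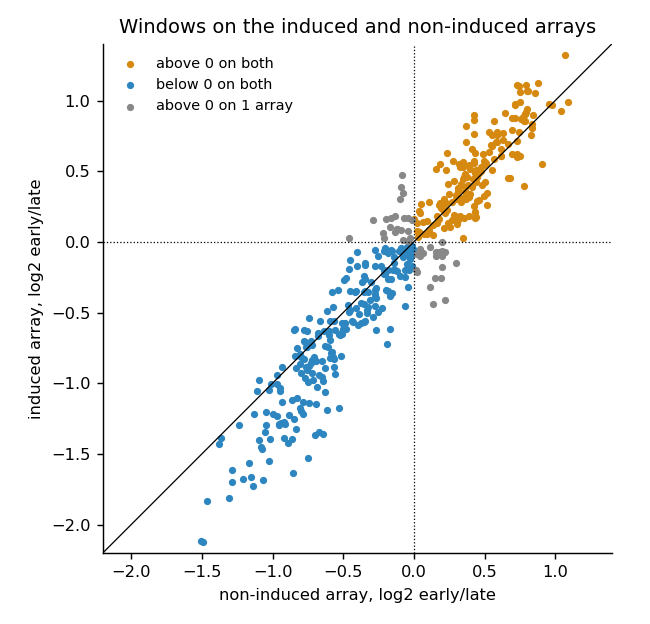
Timing of each of the 447 windows on the induced array (y axis) and on the non-induced array (x axis), both in log2 early over late; colours mark windows above 0 on both arrays, below 0 on both, or above 0 on 1 of them, and the line marks equal values. The points follow the line and fill both corners, with 177 windows above 0 on both and 226 below 0 on both.

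Windows early on both of these arrays numbered 177 (39.6%), windows late on both numbered 226 (50.6%), and 23 and 21 were early on induced alone and on non-induced alone. Over all autosomal windows 42.1% were early on both and 54.5% late on both, close to these shares. Of all windows below 0 on control, 9.17% were early on both. The highest non-induced values among the 447 were 1.09 on chromosome 13 from 120000001 to 120200000, with 0.03 on KO, -0.53 on control and 0.99 on induced, and 1.07 on chromosome 8 from 36000001 to 36200000, with 1.23 on KO, -0.06 on control and 1.32 on induced. The next were chromosome 14 from 68200001 (1.04), chromosome 17 from 81400001 (0.98) and chromosome 2 from 163200001 (0.96), with 0.36 to 0.70 on KO. In these windows control was below 0 and the other 3 arrays were above 0, in some of them barely. Control was at -0.0004 in the window on chromosome 2, and KO at 0.03 in that on chromosome 13. The lowest non-induced value was -1.51, on chromosome 6 from 126200001 to 126400000, with 0.13 on KO, -0.82 on control and -2.11 on induced over 8 probes. Chromosome 8 from 9000001 to 9200000 followed at -1.49, with 0.25 on KO, -0.47 on control and -2.12 on induced. The other 3 of the lowest 5 lay on chromosome 9 from 85800001 (-1.46), chromosome 12 from 26600001 (-1.38) and chromosome 2 from 172400001 (-1.37). All 5 rested on 5 to 8 probes, and KO timing in them was 0.08 to 0.58. On induced, 60 to 100% of their spots were well above background.

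Setting each array against all others makes the same division with a margin. KO was above 0, the other 3 arrays were below 0 and KO exceeded each by at least 0.45 in 195 windows (43.6% of the 447). Control was below 0 while the other 3 were above 0 and at least 0.45 higher in 132 windows (29.5%). The remaining 120 windows (26.8%) met neither. The 195 and the 132 windows meet the rule by definition, and are 1.72% and 1.16% of all autosomal windows. By the same measure over all autosomal windows, control alone was early in 265 (2.34%) and KO alone was late in 90 (0.794%). The induced array alone was early in 3 and late in 3 windows, and the non-induced array alone was early in 7 and late in 3. Induced and non-induced timing went closely together (r = 0.96 over all windows), which left few windows where either could stand apart. The low counts for these arrays are therefore no finding about KO and control. KO and control lay on the same slide as each other and not on that of the induced and non-induced arrays.

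In the 195 windows early on KO alone, median timing was 0.36 on KO, -0.40 on control, -0.74 on induced and -0.64 on non-induced. In the 132 windows late on control alone, it was 0.55 on KO, -0.25 on control, 0.57 on induced and 0.49 on non-induced. The windows early on KO alone held a median of 13 probes each, and those late on control alone 18. Around the 177 windows early on induced and non-induced, mean KO timing peaked at 0.53 in the window itself and was 0.39 and 0.34 in the windows 200 kb before and after, while control dipped to -0.23 with -0.15 and -0.13 beside it. Around the 226 windows late on both, KO peaked at 0.35 and was 0.08 and 0.03 at 200 kb, while control stood at -0.45 with -0.43 and -0.45. The induced and non-induced arrays stood at -0.71 and -0.58 in the windows of this second set and at -0.73 and -0.58 in the window before. These sets were split by the sign of induced and non-induced timing, and the 447 by KO and control, so the central values of all 4 arrays follow from the choice and are a description only.

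**Figure D4:**
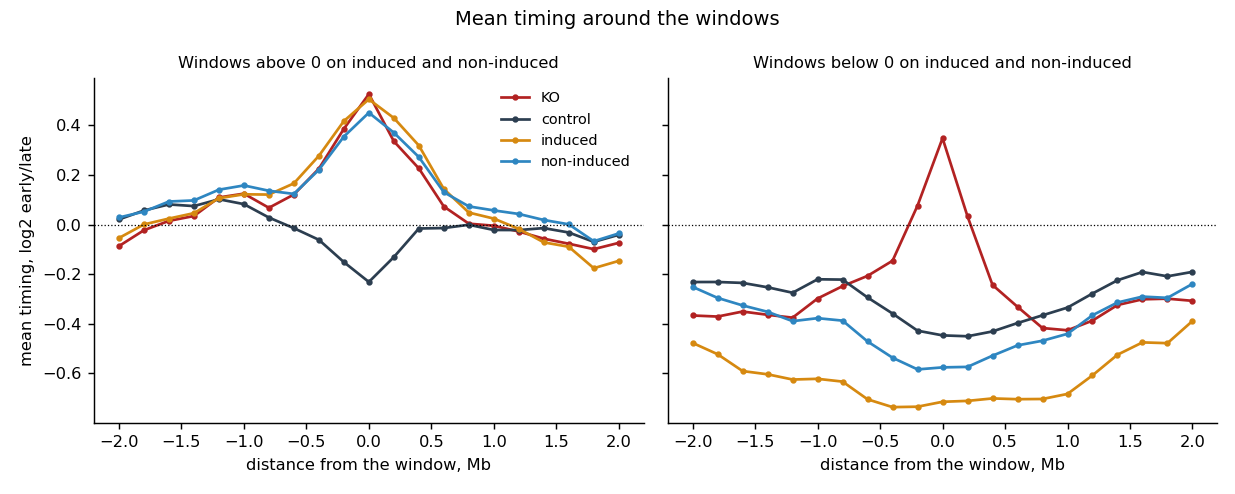
Mean timing in log2 early over late (y axis) of windows by their distance in Mb (x axis) from windows early (left panel, 177) or late (right panel, 226) on both the induced and non-induced arrays; lines are the KO, control, induced and non-induced arrays and the dotted line is 0. In the left panel control dips to -0.23 where the other arrays peak, and in the right panel KO alone peaks, at 0.35; central values follow from the choice of windows on all 4 arrays, KO and control by the rule and induced and non-induced by the split into panels.

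The share of early windows on the other slide followed how late control was. Of the 142 windows with control timing of -0.2 or higher, 67.6% were above 0 on induced and 67.6% on non-induced. Of the 202 between -0.5 and -0.2, 43.1% were above 0 on induced and 43.6% on non-induced, and of the 103 below -0.5, 16.5% on induced and 13.6% on non-induced. Among the other windows in the same ranges of control timing, the shares above 0 were 23.6%, 13.6% and 2.08% on induced and 28.1%, 16.6% and 2.61% on non-induced. The 447 windows were chosen to be early on KO, and timing on all arrays is correlated along the genome, so these shares are not independent of the choice. Probe number also went with it. Of the 95 windows with 5 to 9 probes, 25.3% were above 0 on induced and 20.0% on non-induced, and of the 229 with 16 or more, 57.2% on induced and 59.0% on non-induced. All windows had 14.2% on induced and 16.1% on non-induced with 5 to 9 probes, and 60.7% on induced and 62.1% on non-induced with 16 or more.

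Induced and non-induced timing lay close together in most of these windows. The median of induced minus non-induced timing was -0.03, with the middle 50% between -0.18 and 0.10, against a median of -0.12 over all autosomal windows; in the same 447 windows its sign turned with quantile normalization (0.036) and with centring on the window median (0.18). It was at least 0.45 in 4 windows (0.895%, against 1.36% of all windows) and -0.45 or lower in 23 windows (5.15%, against 21.8%), and it was above 0 in 198 windows (44.3%, against 37.7%). Over all windows, the 10th to 90th percentile spanned 2.70 on induced and 2.07 on non-induced, and the other windows below 0 on control had a median difference of -0.34. These values share no array with the rule. Of windows with 10 or more probes, the highest was on chromosome 6 from 148200001 to 148400000, at 0.49, with 0.02 on induced and -0.46 on non-induced, and with 0.31 on KO and -0.63 on control. Chromosome 9 from 42400001 to 42600000 had 0.48, with 0.39 on induced and -0.09 on non-induced. Chromosome 1 from 54400001 to 54600000 had 0.47, with 0.89 on induced, 0.42 on non-induced, 0.68 on KO and -0.55 on control. The lowest was on chromosome 3 from 98800001 to 99000000, at -0.72, with -1.36 on induced and -0.64 on non-induced, and with 0.23 on KO and -0.50 on control. Chromosome 8 from 116200001 to 116400000 had -0.68, with -1.35 on induced and -0.67 on non-induced, against 0.50 on KO and -0.76 on control. In this pair of windows, 60% and 66.7% of spots were well above background on induced. Both windows were below 0 on induced and non-induced, as were 226 of the 447.

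All 19 autosomes held such windows, in unequal shares. Chromosome 13 had the highest share, 42 of 548 windows (7.66%), followed by chromosome 19 (6.50%), chromosome 9 (6.42%), chromosome 10 (6.03%) and chromosome 8 (5.89%). Chromosome 12 had the lowest, 9 of 534 (1.69%), and the median chromosome had 3.29%. Chromosomes 13, 19 and 10 had few windows of the opposite kind, 7 (1.28%), 4 (1.44%) and 7 (1.14%). Chromosome 12 had 50 (9.36%), and the share over all windows was 5.16%. These shares did not run opposite throughout. Chromosome 17 was low in both, with 1.13% of the opposite kind and 2.94% of the late-to-early kind. Chromosomes 8 and 9 had 4.71% and 4.22% of the opposite kind. Over all autosomes the opposite kind was the more frequent, with 585 windows against 447. This was also so on several chromosomes, among them 14 (64 against 22), 1 (99 against 38) and 12 (50 against 9). On others it was the reverse, as on chromosome 13 (7 against 42). On chromosome 13, 15 of the 42 windows were above 0 on non-induced, on chromosome 15 it was 2 of 11, on chromosome 18 it was 3 of 13, and on chromosome 17 it was 8 of 13. By number, chromosomes 13 and 2 held the most windows early on KO alone, 20 of 548 and 21 of 859. Chromosome 1 held the most that were late on control alone, 17 of 905. These counts also follow the size of the chromosome: chromosome 9, with 592 windows, held 19 early on KO alone and 14 late on control alone. Median total signal on KO minus control was 0.03 on chromosome 13, -0.24 on chromosome 8 and 0.28 on chromosome 12, and its part in these shares was not tested. Of the 447 windows, 10.7% lay within 10 Mb of the first window of their chromosome and 11.4% within 10 Mb of the last, against 7.90% and 8.17% of all windows and 9.68% and 6.87% of the other windows below 0 on control.

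**Figure D5:**
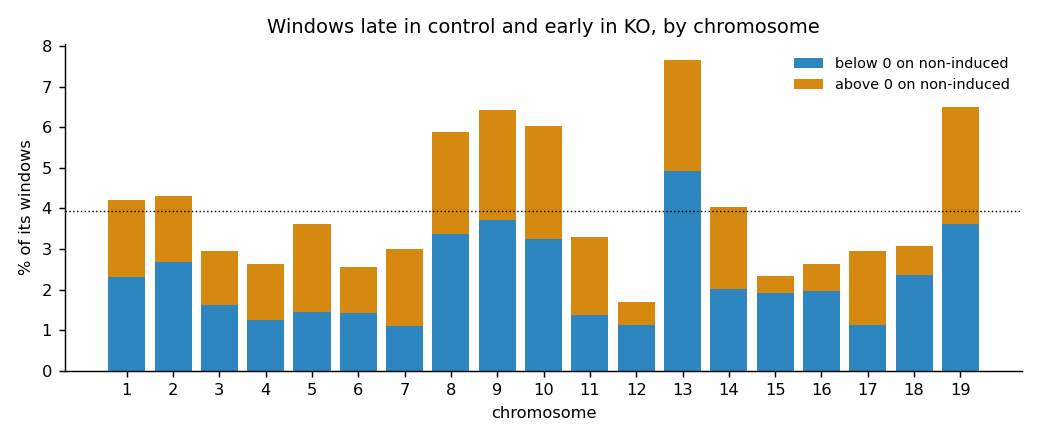
Windows late in control and early in KO as a percentage of all windows (y axis) on each autosome (x axis), split by colour into those above and below 0 on the non-induced array; the dotted line is the share over all autosomes, 3.94%. Chromosome 13 stands highest at 7.66% and chromosome 12 lowest at 1.69%.

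Probe number and the other slide also set these windows beside those of the opposite kind. The 447 held a median of 16 probes, against 15 over all autosomal windows, 12 in the other windows below 0 on control and 8 in the 585 windows that went from early on control to late on KO. In the 585, median timing was -0.78 on induced and -0.24 on non-induced. Induced minus non-induced had a median of -0.45, against -0.03 in the 447 and -0.34 in the other windows below 0 on control. On induced, the median window of the 585 had 62.5% of its spots well above background, against 100% in the 447. No test of these differences could be made with 1 array per group.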

How the data were processed

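Replication timing was measured on 4 two-colour arrays, with early DNA in Cy3 and late DNA in Cy5 on each. Per the file headers, Agilent Feature Extraction read the scans in version 11.5.1.1 (9.1 in the submitters' processing notes), probe positions are on mm9, and the processed signals are intensity values after background subtraction, detrending and 1 linear dye factor per channel. The log10 ratio that the authors deposited has late signal on top, and the series' value table held the identical value, with a tolerance of 0, in all 174305 genomic spots of each array. Its median over these spots was -0.028 for KO, 0.0089 for control, -0.025 for induced and -0.013 for non-induced cells. The flags used, per the file headers, are other values of 0 or 1.

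Spots were averaged per window with no loess, quantile or flag filter. Members and lists were chosen with earlier results of these data known. Regions were named by fixed rules: the 10 with the most windows, and the 5 windows at the extremes of KO minus control, of non-induced timing and, with 10 or more probes, of induced minus non-induced timing. Alternatives covered scaling, normalization, background, centring, window size, probes and thresholds. Probes carry no gene names and the gene table is of another build, so genes, gene lists, the early and late control loci of the protocol and genome sequence were not analysed here. Precision is limited by the number of arrays. Scripts ran in Python 3.11.15 with scipy 1.17.1, pandas 2.3.3 and numpy 2.4.6, and in R 4.3.3 with limma 3.58.1.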

Additional observations from a re-analysis of the deposited data

How the results depend on the processing

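Under 16 alternatives, the number of windows was 187 to 902 against 447, and was within 1.5 times of it except where the window itself changed, with 902 windows of 100 kb and 187 of 400 kb. The share above 0 was 41.6 to 52.7% on the induced array and 40.3 to 50.9% on the non-induced array. With 10 or more probes per window these were 50.0% on induced and 50.9% on non-induced, with arrays centred on the window median 50.9% on induced, and with loess within arrays 52.7% on induced. The median of induced minus non-induced timing, -0.025, turned to 0.029 with quantile normalization, 0.0093 with loess and 0.11 with arrays centred on the window median, where the windows were chosen anew each time. In the original 447 windows it was 0.036 with quantile normalization, -0.030 with loess and 0.18 with window centring, so its sign is not settled; over all windows it was 0.0024 with quantile normalization. Centring subtracts unequal medians from these arrays by construction; with loess the sign turned where windows were chosen anew and not in the original 447; the cause of the turn with quantile normalization was not tested. Of the 447 windows, 89.0% were chosen with arrays scaled to the same spread, 76.3% with loess, 80.5% with window centring and 60.2% from raw median signals corrected by normexp. No paired analysis was possible because each group has 1 array, and no replicate could be left out. Spots not well above background limit late windows on the induced array most, where 89.1% of spots passed.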

Other observations

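On chromosome X, which the autosomal rule leaves out, 23 of 689 windows (3.34%) met the same limits. Their median timing was -0.88 on induced and -0.68 on non-induced, and 1 of the 23 was above 0 on induced and 2 on non-induced. Timing on X is centred on the autosomes, and induced and non-induced values over all 689 windows are not given here. The 23 windows can therefore not be set against the autosomal shares. Total signal on X differed between KO and control by a median of -0.47.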
